A study of Homo sapiens with 20 samples.

Results

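The genes described here are 10 components of activin and TGF-beta signalling, measured in the melanoma cell line WM793 and in lines made from it that overexpress NME1. They are the ligand genes INHBA, INHBB, TGFB1, TGFB2 and TGFB3, the antagonist genes FST and FSTL3, and the receptor genes TGFBR1, TGFBR2 and ACVR1B. They were chosen by platform gene symbol, and each was held by a single row of the value table, 10 of 18708 rows in all, with no other gene sharing the row. The list was drawn up with measured values of these lines in view, and which values decided it is not recorded. Every comparison among the lines therefore counts as used, and the members' differences and calls below are a description, without p-values.

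WM793 is an established line from a vertical growth phase melanoma, and NME1 encodes an enzyme that exchanges phosphates between nucleotides and is known for suppressing metastasis. The lines are NME1-E5A, NME1-K12Q and NME1-P96S, which carry mutant NME1 constructs, NME1-wild-type, which carries the unaltered construct, and Parent, which is WM793 itself. Each line was grown for 3 days and measured on 4 Affymetrix exon arrays that the submitters call technical replicates, 20 arrays in all. Each construct is a single line, so spread between arrays says nothing of spread between lines with the same construct.

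Activins are dimers of inhibin beta chains. Like the TGF-beta ligands they bind a type II receptor that phosphorylates a type I receptor, which in turn phosphorylates SMAD2 and SMAD3. Follistatin and follistatin-like 3 bind activins outside the cell and keep them from their receptors. In melanoma these ligands are known for growth inhibition of melanocytes, for invasion and for effects on surrounding cells.

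The values are RMA log2 expression levels, so a difference of 1 is a doubling, and levels of different genes are not on a common scale. A member counted as called in a comparison at a limma adjusted p under 0.05 over all 18384 features together with a fold of at least 1.5, which is 0.58 on the log2 scale. The array medians lay between 6.27 and 6.50, but the interquartile range (IQR) of an array varied from 2.19 to 3.16. The narrowest arrays were NME1-K12Q replicate 2 (2.46), NME1-P96S replicate 3 (2.33) and Parent replicate 2 (2.19), and values without them are given where they matter. The row that NME1 shares with the NME1-NME2 readthrough was higher than in Parent by 0.26 in NME1-E5A, 0.23 in NME1-K12Q, 0.25 in NME1-P96S and 0.28 in NME1-wild-type. Only in NME1-wild-type did all arrays lie above all Parent arrays, and there by less than 0.01. Of the melanocyte lineage markers, SOX10 averaged 9.34 to 9.53 and S100B 8.22 to 8.91 over the lines, while MLANA averaged 3.55 to 3.96 and PMEL 4.63 to 4.86, below the array medians. Whether these rows lie above background is not known. Leukocyte, endothelial and epithelial marker lists averaged at most 5.51, 5.64 and 5.31 on any array, and 3 or 4 of 8 fibroblast markers lay above the array median in each line.

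The promoters of the members with the widest ranges of line means, INHBA and TGFB2, are shown as the members described in most detail. INHBA was called between lines and TGFB2 was not. Sequences are from RefSeq (GRCh38.p14) and run from 250 bases before the gene's start to 50 after it. Capitals mark the motifs searched on both strands. These were the SMAD box CAGACA, the SMAD palindrome GTCTAGAC, the AP-1 element TGANTCA, the CRE core TGACG, the E-box CACGTG and TATAAA.
INHBA, chr7:41703041-41703340, minus strand: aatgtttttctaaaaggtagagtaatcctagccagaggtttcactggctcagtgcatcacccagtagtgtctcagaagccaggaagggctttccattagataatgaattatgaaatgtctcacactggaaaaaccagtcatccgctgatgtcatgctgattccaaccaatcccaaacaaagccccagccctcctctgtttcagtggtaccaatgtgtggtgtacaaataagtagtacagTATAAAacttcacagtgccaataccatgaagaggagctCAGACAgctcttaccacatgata
TGFB2, chr1:218345086-218345385, plus strand: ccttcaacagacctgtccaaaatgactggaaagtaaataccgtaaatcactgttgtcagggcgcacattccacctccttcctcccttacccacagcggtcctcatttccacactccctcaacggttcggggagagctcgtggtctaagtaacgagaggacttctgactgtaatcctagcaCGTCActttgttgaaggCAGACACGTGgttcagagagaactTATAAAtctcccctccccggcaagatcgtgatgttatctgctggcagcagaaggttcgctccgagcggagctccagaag

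The INHBA window held 1 SMAD box and 1 TATAAA. The TGFB2 window held 1 CRE core, read on the minus strand, 1 SMAD box, 1 E-box that overlaps the SMAD box, and 1 TATAAA. The SMAD box occurred in 2 of the 10 members, the pair shown, and in 16.9% of the 35116 windows of the same length. TATAAA occurred in 3 members and 11.5% of windows, the CRE core in 2 members and 24.6%, and the E-box in 3 members and 7.26%. The AP-1 element occurred in 1 member (FST) and 7.71% of windows, and the SMAD palindrome in 0 members and 0.202%. The INHBA window was 43.3% G and C with 1 CpG, against medians of 58.7% and 14 over all windows, while INHBB reached 88.7% with 58 CpG. For genes with several starts the first listed was used, and a match is a description of the letters only.

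INHBA, which encodes the beta A chain of activin A, was the member that separated the lines. It was highest in NME1-K12Q, intermediate in NME1-wild-type and Parent, lower in NME1-E5A and lowest in NME1-P96S. Its level was 7.44, 7.52, 7.35 and 7.41 on the NME1-E5A arrays, 8.06, 7.89, 8.01 and 8.36 on the NME1-K12Q arrays and 7.22, 7.19, 6.996 and 7.005 on the NME1-P96S arrays. It was 7.65, 7.69, 7.61 and 7.82 on the NME1-wild-type arrays and 7.74, 7.49, 7.85 and 7.77 on the Parent arrays. All NME1-K12Q arrays lay above, and all NME1-P96S arrays below, every array of the other lines, and NME1-wild-type and Parent overlapped.

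Against Parent, INHBA fell by 0.61 in NME1-P96S (SE 0.116), to 7.10 ± 0.12 against 7.71 ± 0.156 in Parent (SD, n = 4 each), which is 1.52-fold lower and was called. NME1-K12Q averaged 8.08 ± 0.201, 0.37 above Parent without overlap, and was not called. NME1-E5A averaged 7.43 ± 0.0694, a difference of -0.28, and overlapped with Parent because Parent replicate 2, the narrowest array, was low. NME1-wild-type averaged 7.69 ± 0.0912 and differed from Parent by -0.02. With respect to Parent, the mutant lines thus lay on both sides.

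**Figure D1:**
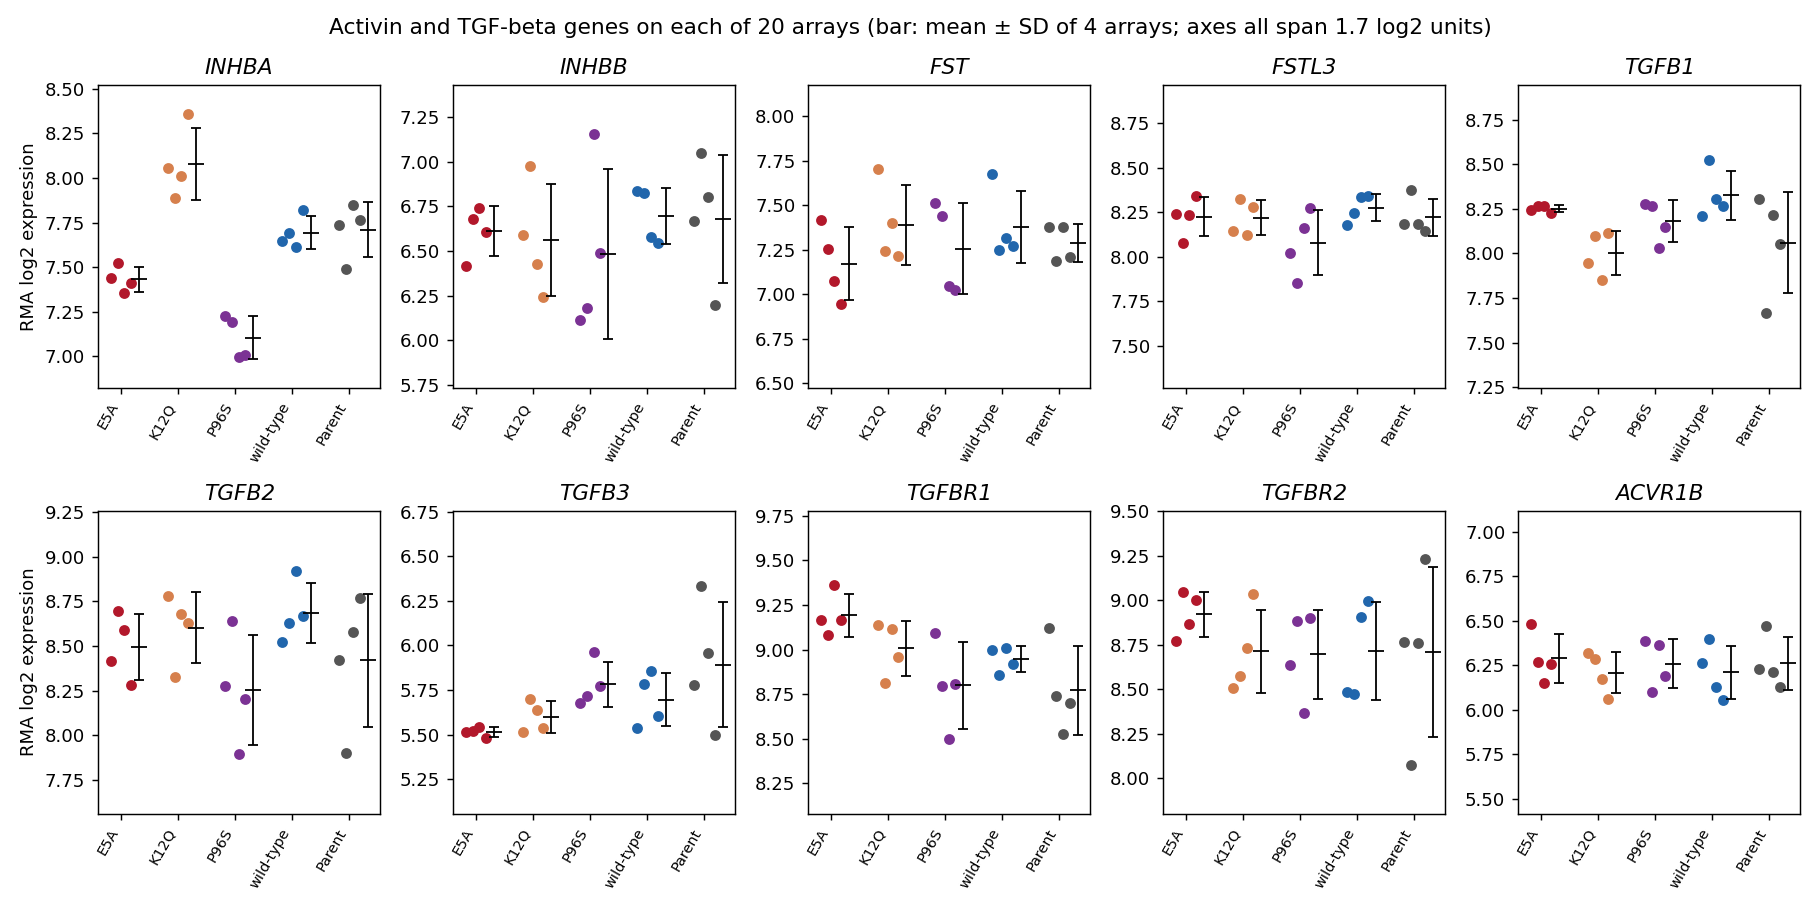
RMA log2 level of each of the 10 genes (y axis, 1.7 log2 units in every panel) on the 4 arrays of each line, with mean ± SD as a bar. INHBA separates NME1-K12Q (7.89 to 8.36) and NME1-P96S (6.996 to 7.22) from the other lines, while most other genes overlap.

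Between the mutants, INHBA differed most between NME1-K12Q and NME1-P96S. NME1-K12Q exceeded NME1-P96S by 0.98 (SE 0.116), a 1.97-fold difference, and this comparison was called. NME1-E5A was lower than NME1-K12Q by 0.65 and was called lower, and it was 0.33 above NME1-P96S, without overlap and not called. Against NME1-wild-type, NME1-P96S differed by -0.59 and was called lower, while NME1-K12Q differed by 0.39 and NME1-E5A by -0.26, each without overlap and not called.

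INHBA was thus called in 4 of the 10 comparisons and its arrays did not overlap in 8. The share of all features called was 0.103% in NME1-P96S against Parent, 0.201% in NME1-P96S against NME1-wild-type, 0.169% in NME1-E5A against NME1-K12Q and 0.277% in NME1-K12Q against NME1-P96S. In the called direction the shares were 0.0544% (lower), 0.131% (lower), 0.0816% (lower) and 0.174% (higher) in the same order of comparisons. Features whose arrays did not overlap made up 1.17% in NME1-K12Q, 1.23% in NME1-P96S, 1.99% in NME1-E5A and 0.827% in NME1-wild-type against Parent. Against NME1-wild-type they made up 3.3% in NME1-E5A, 1.34% in NME1-K12Q and 1.83% in NME1-P96S. They made up 3.54% in NME1-E5A against NME1-K12Q, 3.01% in NME1-E5A against NME1-P96S and 2.22% in NME1-K12Q against NME1-P96S. These shares stand beside a gene chosen with its values known, and nothing is read from them. The calls of NME1-P96S against Parent and against NME1-wild-type lay close to the fold threshold. Centring each array on its median ended them, at -0.56 in each case, and also ended the NME1-E5A against NME1-K12Q call, whose difference was then -0.66. The NME1-P96S calls ended without any 1 of 17 and 14 of the 20 arrays, at differences from -0.65 to -0.56 and from -0.63 to -0.55 in those omissions. Where the difference stayed beyond the fold threshold, it was the adjusted p that no longer passed. The NME1-K12Q against NME1-P96S call held whichever 1 of the 20 arrays was left out, at 0.88 to 1.04, and without the 3 narrowest arrays the difference was 1.00. It was lost with only the 2 lines' arrays and with limma's treat, which tests against the fold threshold. The other INHBA calls were lost in these settings too. The NME1-E5A against NME1-K12Q call was lost without NME1-E5A replicate 1, 3 or 4 or NME1-K12Q replicate 1 or 4, where the difference over all single omissions ran from -0.71 to -0.55.

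**Figure D2:**
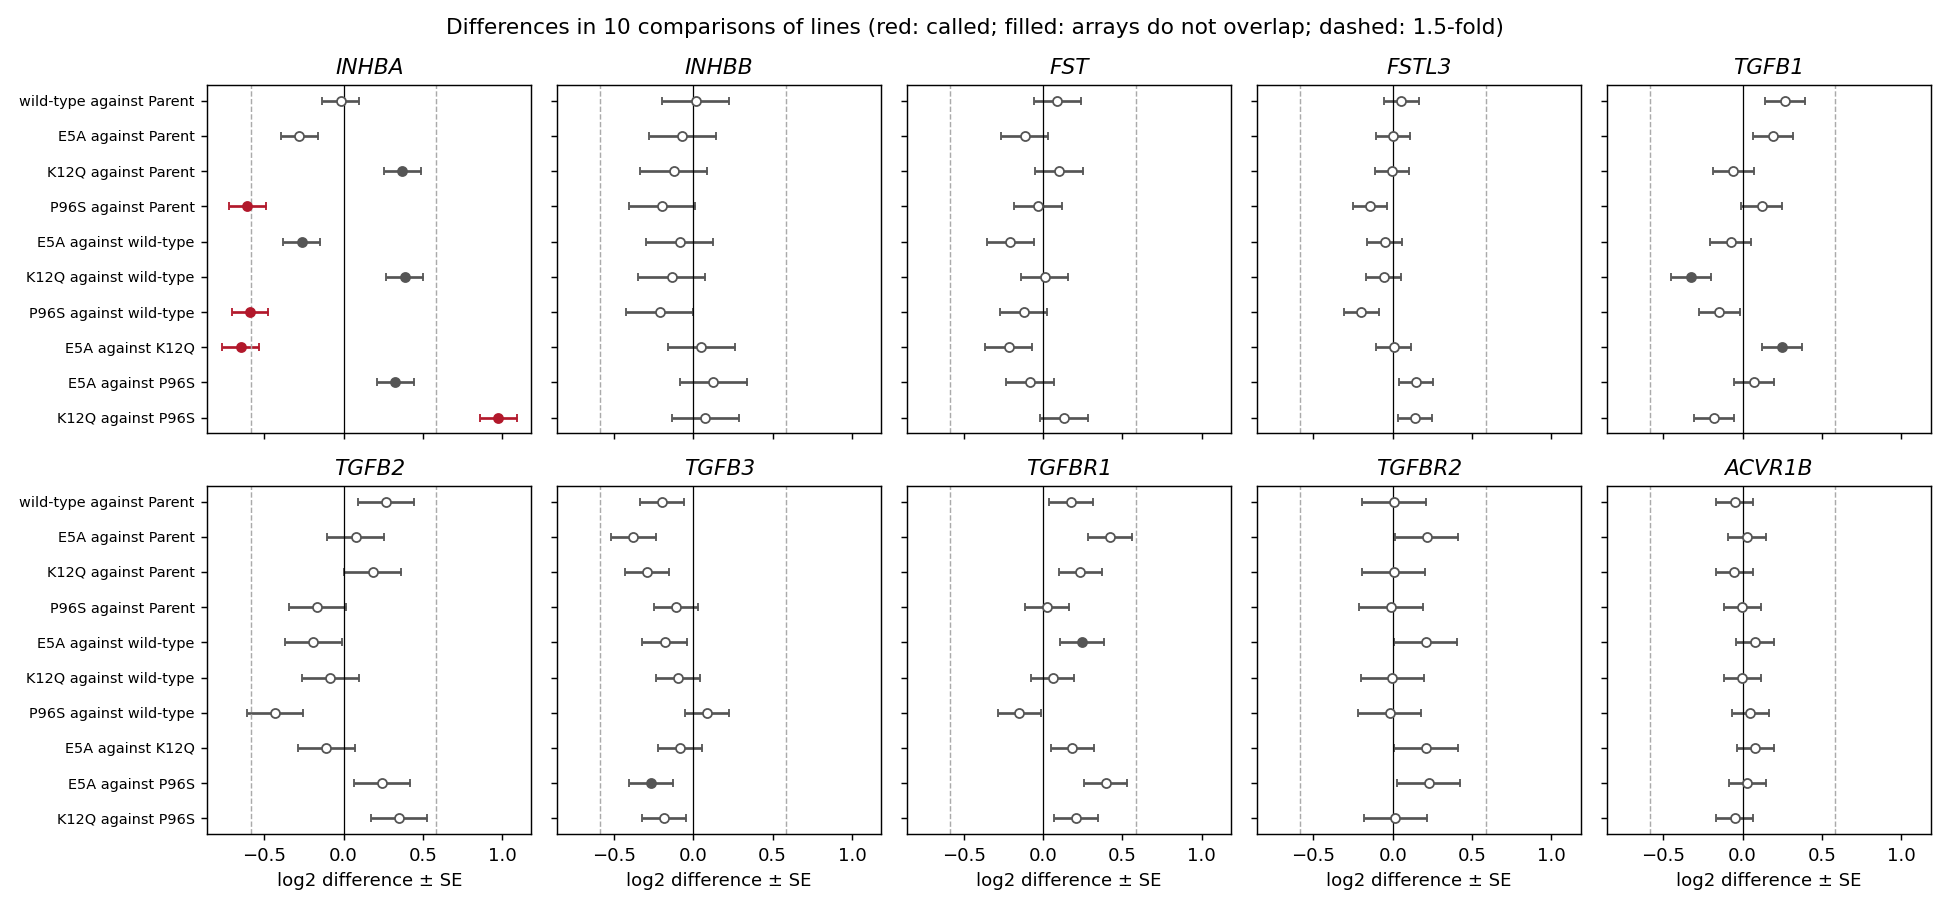
Log2 difference ± SE (x axis) of each gene in the 10 comparisons, the line named first minus the line named second. Red points were called, filled points had no overlap between arrays, and dashed lines mark 1.5-fold. INHBA reaches -0.61 in NME1-P96S against Parent and 0.98 in NME1-K12Q against NME1-P96S, and no other gene passes a dashed line.

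None of the other 9 members was called in any of the 10 comparisons in limma. Their 90 differences ran from -0.43 to 0.42, and 4 of them had no overlap between the arrays of the lines. The shares of all features called against Parent were 0.218% in NME1-E5A, 0.00544% in NME1-K12Q and 0.0326% in NME1-wild-type, beside 0 members called in each.

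INHBB encodes the beta B chain of activin B. Its level was 6.42, 6.68, 6.74 and 6.61 in NME1-E5A, 6.59, 6.98, 6.43 and 6.24 in NME1-K12Q and 6.11, 6.18, 7.16 and 6.49 in NME1-P96S. It was 6.83, 6.83, 6.58 and 6.55 in NME1-wild-type and 6.67, 7.05, 6.81 and 6.20 in Parent. The lines overlapped in every comparison, and the line means spanned 0.21, less than the pooled SD between arrays of a line, 0.316. The high values in NME1-K12Q, NME1-P96S and Parent were those of the 3 narrowest arrays. Without these arrays the means were 6.42 in NME1-K12Q, 6.26 in NME1-P96S and 6.56 in Parent.

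TGFB1, the most widely studied TGF-beta ligand gene, was lowest in NME1-K12Q. It was 8.24, 8.27, 8.27 and 8.23 in NME1-E5A, 7.95, 8.10, 7.85 and 8.11 in NME1-K12Q and 8.28, 8.27, 8.03 and 8.15 in NME1-P96S. It was 8.21, 8.53, 8.30 and 8.27 in NME1-wild-type and 8.31, 7.67, 8.22 and 8.05 in Parent. NME1-K12Q lay wholly below NME1-wild-type, at -0.32 (SE 0.128), and NME1-E5A wholly above NME1-K12Q, at 0.25. Arrays without overlap were found for 1.34% and 3.54% of all features in these comparisons. Parent spread over 0.64, with the narrow replicate 2 as its lowest value. The NME1-K12Q difference from Parent was -0.06 with all arrays and -0.22 without the narrowest ones.

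TGFB2, which encodes the TGF-beta 2 ligand, had the second widest range of line means, 0.43. It was 8.41, 8.70, 8.59 and 8.28 in NME1-E5A, 8.78, 8.32, 8.68 and 8.63 in NME1-K12Q and 8.27, 8.64, 7.90 and 8.20 in NME1-P96S. It was 8.52, 8.63, 8.92 and 8.67 in NME1-wild-type and 8.42, 7.90, 8.58 and 8.77 in Parent. NME1-P96S and NME1-wild-type were at the 2 ends, at -0.43 (SE 0.179), and still overlapped, as did every other pair of lines. The lowest values in NME1-K12Q, NME1-P96S and Parent were again on the narrowest arrays.

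TGFB3 encodes the third TGF-beta ligand. It was 5.52, 5.52, 5.54 and 5.48 in NME1-E5A, 5.51, 5.70, 5.64 and 5.54 in NME1-K12Q and 5.68, 5.72, 5.96 and 5.77 in NME1-P96S. It was 5.54, 5.79, 5.86 and 5.61 in NME1-wild-type and 5.78, 6.33, 5.96 and 5.50 in Parent. All NME1-E5A arrays lay below all NME1-P96S arrays, at -0.27 (SE 0.139), which was not called, in a comparison where 3.01% of all features had no overlap. Each NME1 line had a lower mean than Parent, by 0.11 to 0.38, but Parent spread over 0.83 and overlapped with each. Without the narrow Parent replicate 2, its highest value, the differences were -0.23 in NME1-E5A, -0.15 in NME1-K12Q, 0.04 in NME1-P96S and -0.05 in NME1-wild-type. NME1-E5A varied little between arrays (SD 0.0266), Parent widely (SD 0.35).

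FST encodes follistatin, which binds activins with high affinity. Its level ran from 6.95 to 7.41 in NME1-E5A, 7.21 to 7.70 in NME1-K12Q, 7.02 to 7.51 in NME1-P96S, 7.25 to 7.67 in NME1-wild-type and 7.18 to 7.38 in Parent. The differences from Parent were -0.12 in NME1-E5A, 0.10 in NME1-K12Q, -0.03 in NME1-P96S and 0.09 in NME1-wild-type, each smaller than its SE of 0.149. The widest differences were -0.22 in NME1-E5A against NME1-K12Q and -0.21 in NME1-E5A against NME1-wild-type. FST overlapped between lines in every comparison and was not called.

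FSTL3, which encodes a related secreted activin antagonist, overlapped between lines likewise. It ran from 8.08 to 8.34 in NME1-E5A, 8.13 to 8.32 in NME1-K12Q, 7.85 to 8.28 in NME1-P96S, 8.18 to 8.34 in NME1-wild-type and 8.15 to 8.38 in Parent. Its widest difference was -0.20 (SE 0.109), in NME1-P96S against NME1-wild-type. Both antagonist genes overlapped in every comparison, including those in which INHBA was called. Over all features, only 0.827% to 3.54% had no overlap in a comparison, so nothing is read from the overlap of these genes.

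TGFBR1, the type I receptor gene for TGF-beta ligands, had its highest mean in NME1-E5A. It was 9.17, 9.08, 9.36 and 9.16 in NME1-E5A, 9.14, 8.81, 9.12 and 8.96 in NME1-K12Q and 9.09, 8.80, 8.50 and 8.81 in NME1-P96S. It was 8.999, 8.86, 9.01 and 8.92 in NME1-wild-type and 9.12, 8.74, 8.53 and 8.70 in Parent. NME1-E5A lay wholly above NME1-wild-type, at 0.25 (SE 0.138), where 3.3% of all features had no overlap. Its difference from Parent was 0.42, yet Parent replicate 1 overlapped with it, and neither was called.

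TGFBR2, the type II receptor gene, averaged 8.92 ± 0.127 in NME1-E5A, 8.71 ± 0.234 in NME1-K12Q, 8.70 ± 0.25 in NME1-P96S, 8.71 ± 0.276 in NME1-wild-type and 8.71 ± 0.476 in Parent (SD, n = 4 each). Parent alone spanned 8.07 to 9.23, more than the line means did (0.23). ACVR1B, the type I receptor gene used by activins, averaged 6.29 ± 0.139, 6.21 ± 0.116, 6.26 ± 0.139, 6.21 ± 0.151 and 6.26 ± 0.148 in the same order of lines. Its line means spanned 0.08, the narrowest range among the members, and every pair of lines overlapped.

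Several members followed the spread of the array within lines. With line means removed, the correlation over 20 arrays with the array's IQR was -0.94 for INHBB, -0.80 for TGFB3, 0.80 for TGFB2 and 0.79 for TGFBR2. It was 0.70 for INHBA and between -0.60 and 0.48 for the other 5 members. Without the 3 narrowest arrays (17 arrays) it was -0.88 for INHBB, -0.62 for TGFB3, 0.45 for TGFB2, 0.59 for TGFBR2 and 0.47 for INHBA. With the IQR as a covariate, the INHBA differences were -0.68 in NME1-P96S against Parent and 1.02 in NME1-K12Q against NME1-P96S. The values of all arrays were normalised with RMA, and these correlations are descriptions.

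**Figure D3:**
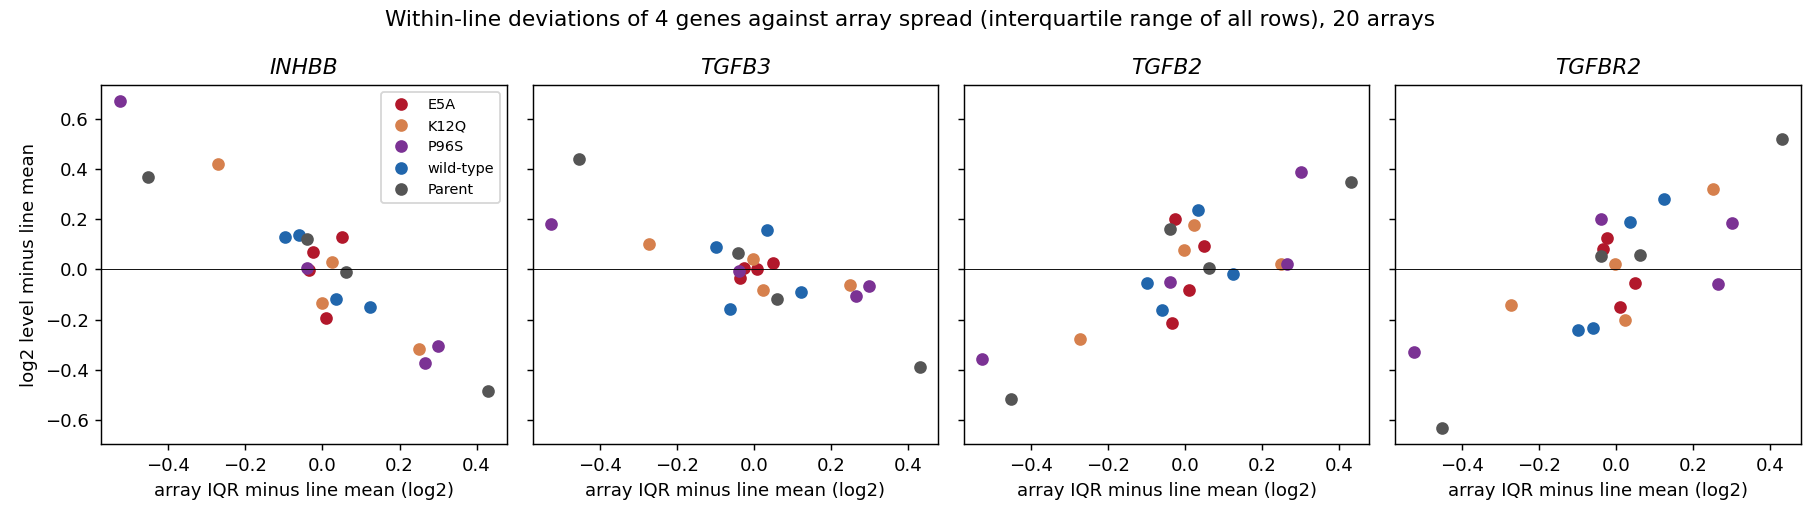
Level of INHBB, TGFB3, TGFB2 and TGFBR2 on each of 20 arrays minus the line mean (y axis, log2) against the array's IQR minus its line mean (x axis, log2), coloured by line. INHBB (r = -0.94) and TGFB3 (r = -0.80) fall with wider arrays, TGFB2 (r = 0.80) and TGFBR2 (r = 0.79) rise.

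Among the 45 pairs of members, correlations over the 20 arrays ran from -0.72 (TGFBR2 and ACVR1B) to 0.58 (TGFB2 and TGFBR2). All of these members also followed the array's IQR within lines, at 0.79 for TGFBR2, -0.60 for ACVR1B and 0.80 for TGFB2. The genes most like INHBA over the 20 arrays were PRDM1, a transcriptional repressor (r = 0.92), SLC7A11, part of the transporter that takes up cystine (r = 0.90), and MX1, an interferon-induced GTPase (r = 0.87). Over the 5 line means their correlations with INHBA were 0.99, 0.95 and 0.99, and within lines 0.61, 0.51 and 0.01. PRDM1 averaged 6.36 in NME1-E5A, 6.96 in NME1-K12Q, 6.01 in NME1-P96S, 6.50 in NME1-wild-type and 6.58 in Parent, the same order as INHBA. The genes most like TGFB2 were ITGA2 (r = 0.91), an integrin chain that binds collagen, DCBLD2 (r = 0.90) and ANTXR2 (r = 0.89). Their within-line correlations with TGFB2 were 0.90, 0.94 and 0.87. On the narrowest arrays, NME1-K12Q replicate 2, NME1-P96S replicate 3 and Parent replicate 2, these genes and TGFB2 were at their line's lowest. How far array spread accounts for these correlations was not tested.

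The rest of the pathway was read from 5 lists of 100 symbols, of which 85 had a row of their own and are no members. In limma, 1 of the 85, BMP2, was called in NME1-E5A against Parent, and 0 in NME1-K12Q, NME1-P96S and NME1-wild-type against Parent. An unadjusted p under 0.05 was met by 12 of them (14.1%, beside 2.98% of all features) in NME1-E5A and 12 (14.1%, beside 1.48%) in NME1-K12Q. It was met by 5 (5.88%, beside 3.14%) in NME1-P96S and 3 (3.53%, beside 1.38%) in NME1-wild-type. The lists were written with earlier results of these data known, so nothing is read from these shares. BMP2 was also the called gene in NME1-E5A against NME1-wild-type, NME1-E5A against NME1-K12Q and NME1-K12Q against NME1-P96S, with 0 called in the other comparisons. The shares of all features called were 0.207% in NME1-E5A against NME1-wild-type, 0.0381% in NME1-K12Q against NME1-wild-type and 0.239% in NME1-E5A against NME1-P96S.

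BMP2 encodes a bone morphogenetic protein, a ligand of the same superfamily that signals through other SMADs. Its level was 7.67, 7.93, 7.76 and 8.06 in NME1-E5A, 9.02, 9.48, 9.23 and 9.24 in NME1-K12Q and 7.94, 8.08, 8.37 and 8.35 in NME1-P96S. It was 8.56, 8.54, 8.69 and 8.86 in NME1-wild-type and 8.39, 8.74, 8.71 and 8.39 in Parent. NME1-K12Q lay above all other arrays, as for INHBA. NME1-E5A and NME1-P96S lay below all NME1-wild-type and Parent arrays, with NME1-E5A lower in mean.

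BMP2 fell by 0.70 in NME1-E5A against Parent, where 0.0762% of all features were called lower (SE 0.139, limma adjusted p = 0.0314) and by 0.81 against NME1-wild-type (limma adjusted p = 0.0115). NME1-E5A was 2.62-fold lower than NME1-K12Q (-1.39, limma adjusted p = 1.6e-05), and NME1-K12Q was 1.06 above NME1-P96S (limma adjusted p = 0.000832). The difference of NME1-K12Q from Parent was 0.69 without overlap but did not pass (limma adjusted p = 0.198). BMP2 is named because it was called, from lists written with earlier results of these data known. Its p-values measure only the spread between technical replicate arrays and are given as a description. The calls of NME1-E5A against Parent and NME1-wild-type were also lost after quantile normalisation, and that of NME1-K12Q against NME1-P96S with only the 2 lines' arrays or with limma's treat, which tests against the fold threshold. The call against Parent was lost without Parent replicate 2 or 3, NME1-E5A replicate 1, 2 or 3, or NME1-K12Q replicate 3 (-0.73 to -0.64), and that against NME1-wild-type without NME1-E5A replicate 1 or 3 (-0.78 to -0.74). INHBA and BMP2 correlated over the 20 arrays with r = 0.72, and within lines with r = -0.30, a pair set side by side after its values were seen.

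Among the 13 other family ligands, 1 was lower (BMP2), 0 were higher and 12 were not called in NME1-E5A against Parent. GDF11, a ligand related to myostatin, differed by -0.19 in NME1-E5A, -0.03 in NME1-K12Q, 0.10 in NME1-P96S and -0.01 in NME1-wild-type. BMP4 differed by 0.04, -0.001, 0.12 and -0.08 in the same lines. The median difference of this list was -0.17, -0.18, -0.20 and -0.12, beside -0.04, -0.05, -0.06 and -0.03 over all features.

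The 20 other antagonists, latency and activation proteins had 0 called against Parent, at medians of 0.02 in NME1-E5A, -0.07 in NME1-K12Q, -0.10 in NME1-P96S and -0.07 in NME1-wild-type. THBS1, whose product can release latent TGF-beta, differed by -0.04, 0.12, 0.15 and 0.05, and ITGB8, an integrin chain that activates latent TGF-beta, by 0.04, -0.07, 0.32 and 0.02 in the same order. The 11 other receptors and coreceptors had 0 called, at medians from -0.01 to 0.04 against Parent. BAMBI, a pseudoreceptor that dampens signalling, differed by -0.13, -0.13, -0.23 and -0.11, and the TGF-beta coreceptor gene ENG by -0.11, -0.01, -0.03 and 0.02. None of these 4 genes was called in any comparison.

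The 20 SMAD genes and regulators had 0 called and medians from 0.02 to 0.04 against Parent. SMAD3, a direct substrate of the activin and TGF-beta type I receptors, differed by 0.09 in NME1-E5A, 0.11 in NME1-K12Q, 0.19 in NME1-P96S and 0.12 in NME1-wild-type. PMEPA1, a TGF-beta-induced feedback inhibitor, differed by -0.03, 0.19, 0.02 and -0.18. The 21 measured transcriptional targets had 0 called, at medians of 0.03, 0.07, -0.05 and 0.02. FN1, which encodes fibronectin, differed by 0.42, 0.18, 0.10 and 0.15, and IGFBP3, an insulin-like growth factor binding protein gene, by 0.33, 0.53, 0.18 and 0.22. In NME1-P96S against Parent, where INHBA was called, 0 of the 85 list genes were called, and neither was FST or FSTL3. Only 0.103% of all features were called there, so nothing is read from this absence. The count of list genes was 6 with array weights and 2 without the 3 narrowest arrays, all lower.

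**Figure D4:**
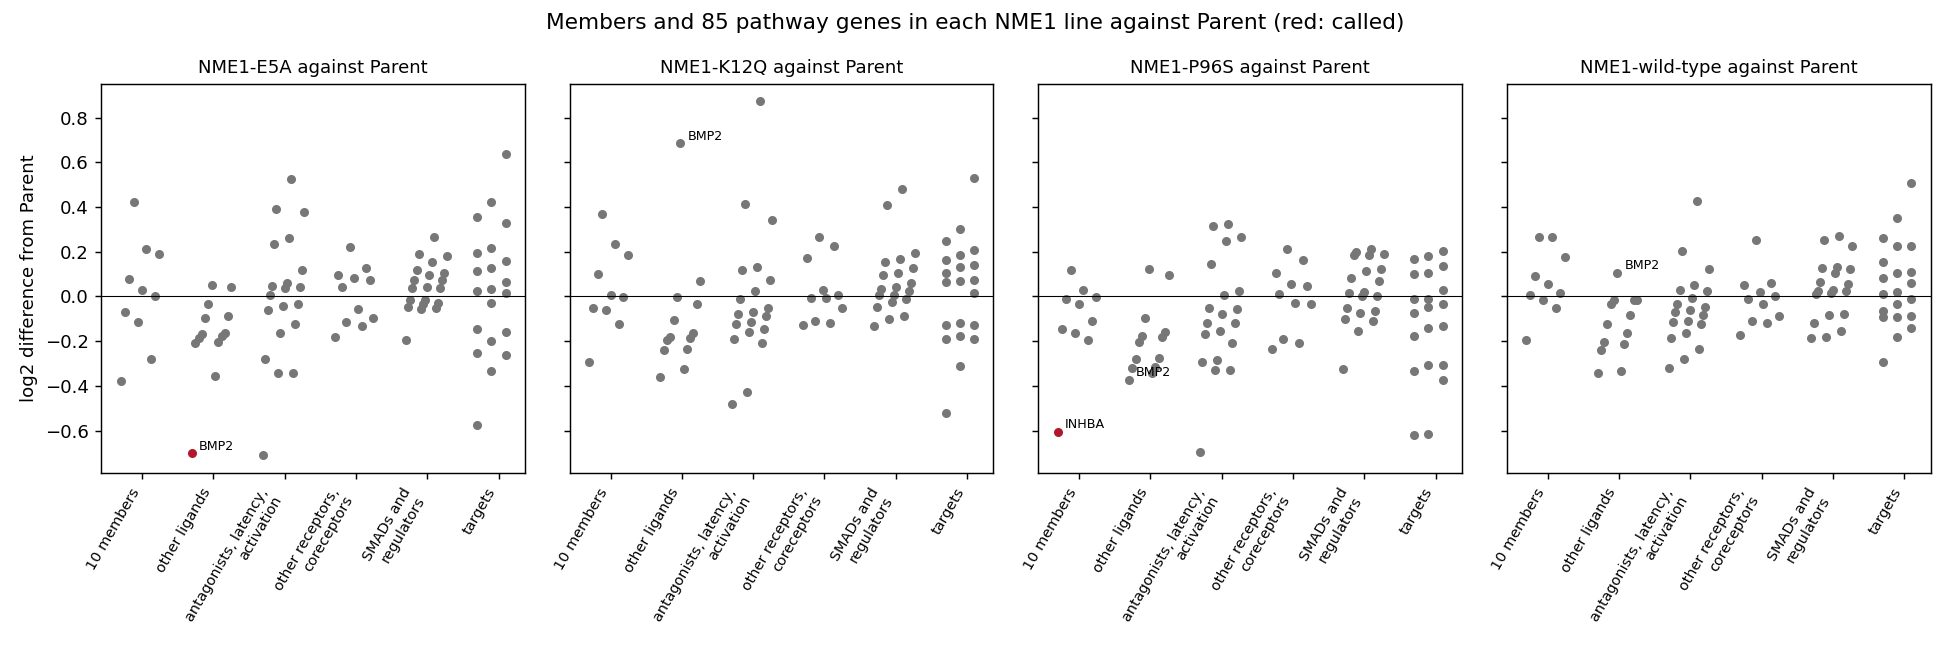
Log2 difference from Parent (y axis) of the 10 members and of 85 pathway genes in 5 lists (x axis) in each NME1 line, with called genes in red. BMP2 is called in NME1-E5A (-0.70) and INHBA in NME1-P96S (-0.61), and no gene is called in NME1-K12Q or NME1-wild-type.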

How the data were processed

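The deposited values are log2 expression levels of 20 arrays, which the authors normalised with RMA, per the series' design text in the labels. The submitters' processing notes name RMA and limma without versions, and the genome build is not given in the sources used here. Rows were named by the platform annotation. Where a gene had several rows the one with the highest mean was kept, which left 18384 features. Line means were estimated from all arrays together with limma 3.58.1 in R 4.3.3 (15 residual degrees of freedom, Benjamini-Hochberg adjustment over all features). The fit was tested on simulated data with independent noise in each feature and array. Deviations of the real arrays were correlated, which that simulation does not cover. Because the arrays are technical replicates, p-values measure only the spread between arrays. Array number limits the precision. The members, lists and tests were chosen with earlier results of these data known. Named genes were all members, and per list up to 6 called genes and the 2 with the highest mean not called. For INHBA and TGFB2 the 3 most correlated genes were added. Other names are marked as chosen after seeing their values.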

Additional observations from a re-analysis of the deposited data

Results flagged for a closer look

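Within the groups of 4 arrays, 55 sets of values (10 members and BMP2 in 5 lines) were searched for an array far from the rest, and chance marks about 1 in 20 such sets. FST in NME1-wild-type replicate 1 was 7.67, with the nearest of the other arrays at 7.31 and the lowest at 7.25. Replicate 1 was also the highest FST array in NME1-E5A (7.41), NME1-K12Q (7.70) and NME1-P96S (7.51). In Parent, replicates 1 and 3 were both at 7.38, above the others. FSTL3 in Parent replicate 2, the array of narrowest spread, was 8.38, with the nearest at 8.18 and the lowest at 8.15.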

How the results depend on the processing

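The INHBA call was the count of members in 4 comparisons, 1 each, and the count was 0 in the other 6 comparisons under every alternative run. It became 0 with only the 2 lines' arrays or with limma's treat in all 4. It became 0 with median centring in NME1-P96S against Parent, NME1-P96S against NME1-wild-type and NME1-E5A against NME1-K12Q. It was also 0 with the replicate block in NME1-P96S against Parent, and with array weights or without the 3 narrowest arrays in NME1-P96S against NME1-wild-type. Leaving out single arrays gave 0 to 1 in these 3 comparisons. The direction of INHBA turned in none of the 4. In NME1-E5A against Parent the pathway count stayed at 1 after quantile normalisation, but the gene called was GREM1 and not BMP2.

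Pathway genes called in NME1-E5A against Parent (1) numbered 3 with the IQR covariate, array weights or without the 3 narrowest arrays (BMP2, GREM1 and ANGPTL4), 2 with the replicate block, 0 with only the 2 lines' arrays or treat, and 0 to 2 without single arrays. In NME1-K12Q against Parent (0) they numbered 1 with the covariate or weights. In NME1-P96S against Parent (0) they numbered 6 with weights, 1 with the replicate block, 2 without the narrowest arrays and 0 to 2 without single arrays. In NME1-E5A against NME1-wild-type (1) they numbered 0 with quantile normalisation or treat, 2 with the covariate, 3 with weights and 0 to 1 without single arrays. In NME1-P96S against NME1-wild-type (0) they numbered 1 with the covariate or without the narrowest arrays, 3 with weights and 0 to 1 without single arrays. Between mutants, NME1-E5A against NME1-P96S (0) gave 1 with the covariate, 2 with weights or without the narrowest arrays (NOG and ANGPTL4) and 0 to 1 without single arrays. NME1-K12Q against NME1-P96S (1, BMP2) gave 0 with only the 2 lines' arrays or treat, and 2 (BMP2 and NOG) with median centring, quantile normalisation, the covariate, weights or without the narrowest arrays, and 1 to 2 without single arrays. The cause was not tested, except that treat sets a stricter bound and the pairwise fit uses fewer arrays.

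Over all features, the settings other than single omissions gave 0 to 11 calls in NME1-wild-type against Parent (6 in the reported fit), 2 to 93 in NME1-E5A (40), 0 to 28 in NME1-K12Q (1) and 0 to 1639 in NME1-P96S (19), the highest with array weights. They gave 2 to 77 in NME1-E5A against NME1-wild-type (38), 0 to 21 in NME1-K12Q (7) and 7 to 160 in NME1-P96S (37). Between mutants they gave 5 to 94 in NME1-E5A against NME1-K12Q (31), 0 to 551 in NME1-E5A against NME1-P96S (44) and 1 to 370 in NME1-K12Q against NME1-P96S (51).

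The labels give no meaning to equal replicate numbers. Of 40 same-number pairs, 25 correlated above 0.1 (-0.85 to 0.81), and 11 of 20 arrays correlated best with an array of their own number. All pairs of replicate 1 correlated positively, from 0.11 to 0.60, while replicates 2, 3 and 4 each held negative pairs. This is a hint from the data that some numbers, replicate 1 above all, share something, and not a pairing in the design. The replicate block changed the counts of members and pathway genes only as given above. Scanner files were not used here, so background correction and detection could not be varied, and the signal over background of the members is unknown.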

Other observations

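GREM1 and NOG, extracellular antagonists of bone morphogenetic proteins, are named after their values were seen. GREM1 averaged 5.23 in NME1-E5A, 5.51 in NME1-K12Q, 5.24 in NME1-P96S, 5.66 in NME1-wild-type and 5.94 in Parent. The differences of NME1-E5A (-0.71, limma adjusted p = 0.0751) and NME1-P96S (-0.69, limma adjusted p = 0.184) from Parent did not pass, though the arrays did not overlap. NOG averaged 5.27, 5.62, 4.46, 4.95 and 4.75 in the same order of lines. NME1-K12Q lay above NME1-P96S without overlap, at 1.16 (limma adjusted p = 0.0675), which did not pass with the values as deposited and passed after median centring, quantile normalisation, with the IQR covariate, with array weights and without the 3 narrowest arrays. NOG, BMP2 and INHBA all had their highest line mean in NME1-K12Q. All were called in NME1-K12Q against NME1-P96S, NOG only under alternative settings. They are set together after such calls, so nothing is read from the shared order. GREM1 and NOG averaged below the array medians (6.27 to 6.50) in every line, and their signal over background is unknown.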
